A study of Rattus norvegicus with 4 samples.

Results

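The tight junction genes described here are 9 genes of the seal between intestinal epithelial cells: the claudins Cldn1, Cldn2, Cldn3, Cldn4, Cldn7 and Cldn15, the transmembrane protein gene Ocln (occludin), the scaffold gene Tjp1 (ZO-1) and the adhesion molecule gene F11r (JAM-A). They were chosen by gene name on the array, without regard to suffixes that mark predicted or mapped transcripts, which gave 15 probes of 41012 and 9 of the 35672 names on the array. RNA came from the small intestine, freed of Peyer's patches, of male Wistar rats, an outbred stock. From 3 weeks of age and for 12 weeks, 2 control rats drank tap water and 2 compost rats drank tap water with 1% (v/v) of a heated watery extract of fermented compost, and each rat had 1 one-colour array. The comparison asks what drinking the extract does to gut gene expression. The labels do not give the segment of small intestine, and all 4 arrays lay on 1 slide with the groups at different positions, so position and group cannot be told apart.

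A tight junction is a belt of strands at the top of the lateral membrane that seals the space between neighbouring cells. Claudins form the strands: some, such as Cldn1, Cldn3 and Cldn4, tighten the seal, while Cldn2 and Cldn15 form channels that let small cations and water pass between cells. In the small intestine the channel-forming claudins return sodium to the lumen, where sodium-driven carriers of sugar and amino acids need it. Occludin and JAM-A lie in the same belt, and ZO-1 ties all of them to the actin cytoskeleton inside the cell.

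Several claudin genes and the occludin gene are known in epithelial cells as targets of repressors of the Snail family, which bind the E-box CAGGTG. The RefSeq promoter table of GRCr8 held a start site for 7 of the 9 genes, without Cldn2 and Cldn4. The 250 bases before the start held CAGGTG on either strand in 4 of these 7 genes, Cldn3, Cldn7, Ocln and F11r, against 15.9% of all 33465 promoters of that length. The GC box GGGCGG lay in 5 of the 7 (30.5% of all promoters) and the TATA box TATAAA in 0 of the 7 (12.9%). For Tjp1 and Cldn15 the start in this table lies inside the gene's annotated span. Other starts were not searched, and both genes are counted among the 7. No link between the E-box and the comparison of compost with control further on was tested. The 4 promoters with an E-box are printed. They run 5′ to 3′ on the gene's strand, each E-box is in capitals, and a match of letters is not a bound site.
Cldn3, chr12:27346548-27346797, minus strand: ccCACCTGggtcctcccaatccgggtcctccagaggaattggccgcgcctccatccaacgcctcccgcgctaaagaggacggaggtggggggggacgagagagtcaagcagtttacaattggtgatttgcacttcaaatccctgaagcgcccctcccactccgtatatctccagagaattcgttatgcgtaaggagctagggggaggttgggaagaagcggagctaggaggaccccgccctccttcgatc
Cldn7, chr10:55188420-55188669, plus strand: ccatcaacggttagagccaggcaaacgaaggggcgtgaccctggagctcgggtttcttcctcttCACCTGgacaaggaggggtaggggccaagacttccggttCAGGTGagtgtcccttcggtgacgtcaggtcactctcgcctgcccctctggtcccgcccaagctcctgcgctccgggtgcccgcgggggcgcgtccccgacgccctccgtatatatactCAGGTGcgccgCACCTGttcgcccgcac
Ocln, chr2:33441199-33441448, minus strand: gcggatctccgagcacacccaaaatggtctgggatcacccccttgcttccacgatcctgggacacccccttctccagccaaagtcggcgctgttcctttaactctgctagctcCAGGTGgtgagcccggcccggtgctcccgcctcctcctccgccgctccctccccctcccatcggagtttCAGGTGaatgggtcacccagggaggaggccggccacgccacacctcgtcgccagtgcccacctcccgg
F11r, chr13:86405979-86406228, plus strand: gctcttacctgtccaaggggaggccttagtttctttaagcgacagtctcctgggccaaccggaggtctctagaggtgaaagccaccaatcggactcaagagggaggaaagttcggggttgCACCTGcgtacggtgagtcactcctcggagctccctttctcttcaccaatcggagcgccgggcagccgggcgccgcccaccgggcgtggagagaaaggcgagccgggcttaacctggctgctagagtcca

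Of the 4 windows, that of Cldn7 held 4 E-boxes and that of Ocln 2, while those of Cldn3 and F11r held 1 each.

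The arrays were alike in quality. Between 66.5% and 71.0% of the 43379 gene spots were well above background, and the median spot intensity ran from 80.8 to 113. The tissue held epithelium and muscle by its markers: all 12 markers of the intestinal epithelium listed, among them Epcam, Krt8, Vil1, Cdx2 and Cdh1, were well above background in all 4 rats, and so were all 6 smooth muscle markers on the array, among them Actg2, Des and Tagln. Of 10 colon and stomach markers, 5 were kept: Car1, Car4, Slc26a3 and the stomach gene Tff1 were well above background in all 4 rats and Aqp8 in 3. The stomach genes Gkn1, Gkn2, Muc5ac, Cldn18 and Pga5 were not above background often enough to be kept. Of the 15 probes, 13 were well above background in all 4 rats and 14 were kept for testing, which required 2 rats. No probe was saturated or an outlier (0 of 15).

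No tight junction gene passed the test between compost and control. Of the 14 kept probes, 0 were called higher and 0 lower by limma at an adjusted p under 0.05, and each had an adjusted p of 1 over the 28415 probes tested. Across all kept probes 0% were called higher and 0% lower, and 913 probes (3.21%) had an unadjusted p under 0.05, of which 0 were tight junction probes. The group means differed by a median of 0.16 log2 units in size over the 14 probes, and by 0.15 over all kept probes. The largest difference was that of Cldn15, at -0.39 ± 0.37 (SE, n = 2 rats a group), which is 1.31-fold lower in compost. Differences below are compost minus control on the log2 scale with limma's standard error. With 2 rats a group an exact permutation test of a single gene cannot give a two-sided p below 0.333. In bulk tissue, fewer cells of a type and less RNA per cell cannot be told apart.

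In most probes the rats of at least 1 group differed by as much as the group means, as over the whole array. The larger of the within-group differences between single rats is set here against a difference of means, which favours this outcome. In 13 of the 14 probes at least 1 of the within-group differences was as large as, or larger than, the difference between the group means. Over all kept probes this held for 83.2%. The exception was Cldn3. The groups did not overlap in 2 probes: compost was above control in 1, Cldn3, against 12.4% of all kept probes, and below it in 1, F11r, against 15.5%. Neither share stands above that of the array as a whole.

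**Figure D1:**
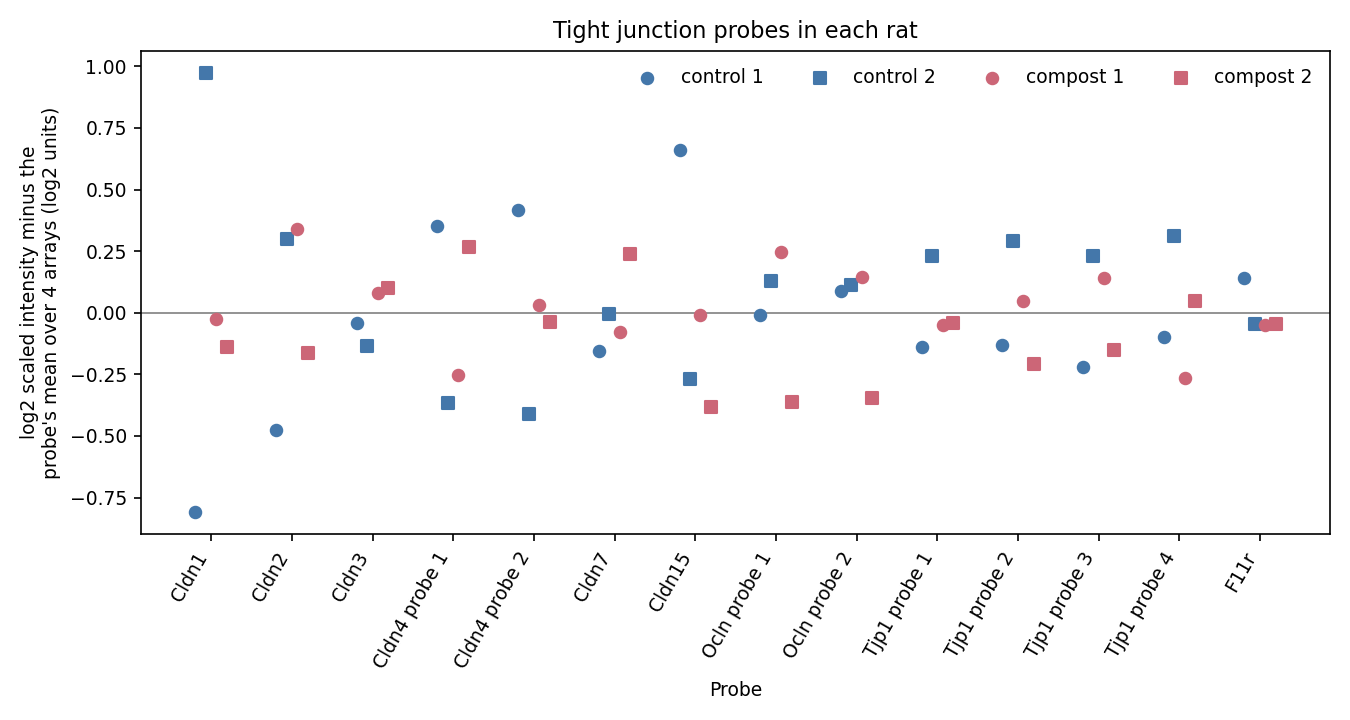
Log2 scaled intensity of each kept probe, shown relative to the mean of that probe over the 4 arrays, with 1 point per rat (blue control, red compost; circle replicate 1, square replicate 2). Red and blue points mix in 12 of the 14 probes; Cldn3 has both red points on top and F11r has both at the bottom by a margin too small to see.

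Among the claudins that tighten the seal, Cldn3 is a main sealing claudin of the small intestine. Its probe, A_44_P376862, lay at 23.5 and 22.0 times the array's 75th percentile of intensity in the control rats and at 25.6 and 26.0 times in the compost rats. This multiple is the scaled intensity, and it compares rats for 1 probe, not genes with each other. The rats of each group lay close together, and the nearest rats of the 2 groups were 0.12 log2 units apart. The difference was 0.18 ± 0.17 (adjusted p = 1 by limma), or 1.13-fold, with a 95% interval from 0.824-fold to 1.56-fold. It was 0.13 to 0.23 with each rat left out.

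Cldn4, a sealing claudin of many epithelia, was read by 2 probes. The brighter, A_44_P975437, lay at 126 and 76.5 times the 75th percentile in control and at 82.8 and 119 in compost. The other, A_44_P299550, lay at 10.8 and 6.07 in control and at 8.24 and 7.85 in compost. Both probes were highest in control rat 1 and lowest in control rat 2, so the control rats enclosed the compost rats. They parted on compost rat 2, which was near the top for the brighter probe and in the middle for the other. The differences were 0.01 ± 0.34 and -0.01 ± 0.32. They were -0.35 and -0.42 without control rat 2 and 0.37 and 0.41 without control rat 1, so the direction depended on which control rat was kept.

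Cldn7, which lies along the lateral membrane as well as in the junction and binds Epcam, had scaled intensities of 139 and 154 in control and 147 and 182 in compost. Only compost rat 2 stood above the control rats. The difference was 0.16 ± 0.21 (interval 0.767-fold to 1.63-fold) and was 0.004 without compost rat 2. Epcam itself differed by -0.02 ± 0.18.

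Cldn1, a sealing claudin of tight epithelia such as the epidermis, was near the limit of detection. Probe A_44_P285463 was well above background in control rat 2 and compost rat 1 alone, at scaled intensities of 0.0143 and 0.0492 in control and 0.0246 and 0.0227 in compost. The control rats were the lowest and the highest of the 4. The fitted difference was -0.16 ± 0.61, and it rests in each group on 1 rat that was not well above background, so it and the values with a rat left out have no exact size. Its second probe, A_43_P12641, was not well above background in any rat and gives no fold. The interval of the first probe was the widest of the kept probes, from 0.292-fold to 2.72-fold, so this gene is not measured to within 2-fold.

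Of the channel-forming claudins, Cldn2 is expressed mainly in crypts. Its scaled intensity was 0.183 and 0.314 in control and 0.323 and 0.228 in compost. Each group held 1 high and 1 low rat. The difference was 0.18 ± 0.35, and it turned to -0.21 without control rat 1 and to -0.07 without compost rat 1. The interval ran from 0.598-fold to 2.13-fold.

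Cldn15, the claudin of sodium recycling along the small intestine, lay at 1.37 and 0.721 in control and at 0.864 and 0.666 in compost. Control rat 1 stood above the other three rats, which lay close to each other. The difference of -0.39 was 0.07 without control rat 1 and -0.86 without control rat 2. The 95% interval of the log2 difference, from -1.37 to 0.59, includes both no change and a difference past 2-fold.

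Among the gene patterns most like that of Cldn15 over the 4 arrays, by Euclidean distance between log2 levels centred on their mean, were those of Prxl2a (0.08 log2 units) and Uts2 (0.15), out of 11375 named genes. Cldn1, the other of the 2 genes with the widest range, was not well above background in 2 of the 4 rats, so no likeness is given for it. With 4 arrays such matches describe a similar profile over the rats and no more. Even the order of rats was not the same throughout: the lowest was compost rat 2 for Cldn15 and control rat 2 for Uts2.

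Ocln, a membrane-spanning protein of the strands, was read by 2 probes whose rats fell in the same order at the ends. Probe A_44_P1007729 lay at 22.4 and 24.6 in control and at 26.7 and 17.6 in compost. Probe A_43_P12552 lay at 11.8 and 12.0 in control and at 12.2 and 8.72 in compost. In both, compost rat 1 was the highest and compost rat 2 the lowest, with the control rats between them. The differences were -0.12 ± 0.27 and -0.20 ± 0.24, and they turned to 0.19 and 0.04 without compost rat 2. The compost mean was thus the lower only with compost rat 2 included.

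Tjp1, the scaffold ZO-1, was read by 4 probes. The brightest, A_44_P978901, lay at 0.696 and 0.899 in control and at 0.740 and 0.743 in compost. Probe A_44_P978899 lay at 0.659 and 0.881 in control and at 0.745 and 0.625 in compost. The dimmer probes A_44_P238710 and A_44_P314634 lay at 0.106 and 0.145 against 0.136 and 0.111, and at 0.0550 and 0.0731 against 0.0490 and 0.0608. Control rat 2 was the highest in all 4 probes, while the lowest rat differed between them. The differences were -0.09 ± 0.21, -0.16 ± 0.24, -0.01 ± 0.25 and -0.22 ± 0.24. Without control rat 2 they were 0.09, 0.05, 0.21 and -0.01, so the lower compost mean rested on that rat in 3 of the 4 probes. A_44_P238710 was also at 0.13 without compost rat 2. With quantile scaling it was at 0.01.

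F11r, JAM-A, an immunoglobulin-like adhesion molecule that helps place the junction, lay at 30.8 and 27.1 in control and at 27.0 and 27.1 in compost. Control rat 1 was the highest and the other three were level: the groups were separated by 0.001 log2 units. The difference was -0.09 ± 0.18, with the narrowest interval but that of Cldn3, from 0.672-fold to 1.30-fold. Under quantile scaling, under scaling on probes detected on all arrays and with normexp background correction the groups overlapped.

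**Figure D2:**
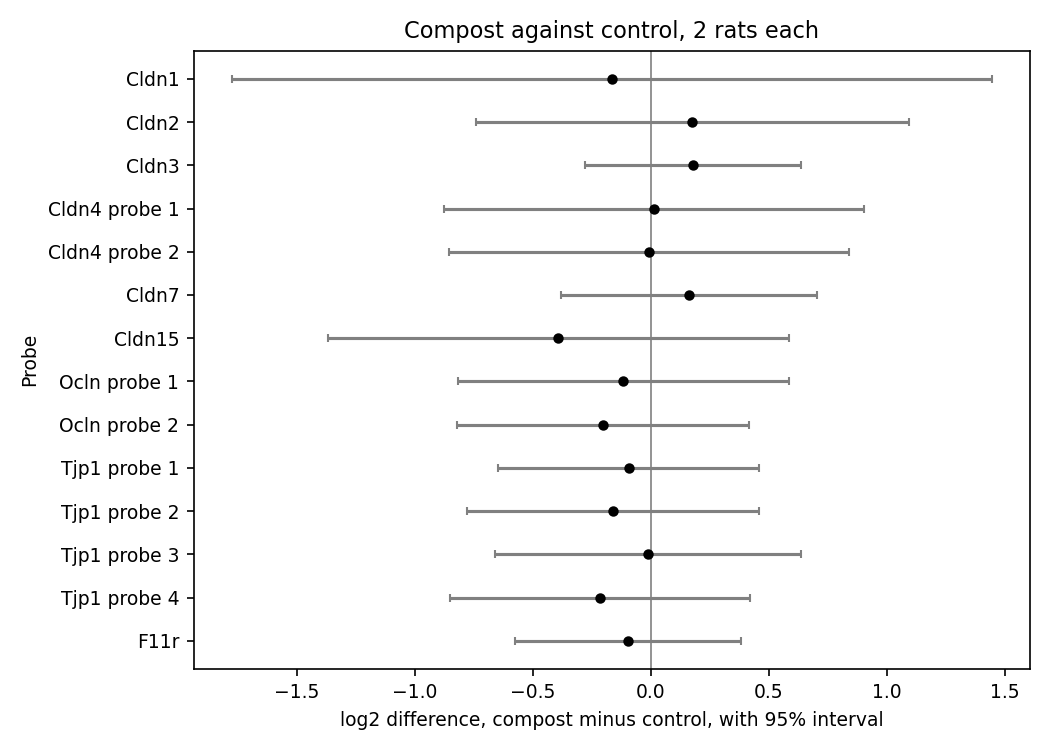
Log2 difference of each kept probe, compost minus control, with its 95% interval from limma (2 rats a group). All 14 intervals hold 0, the narrowest belong to Cldn3 and F11r, and the widest, that of Cldn1, runs from 0.292-fold to 2.72-fold.

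The intervals state what the arrays could and could not see. For 11 of the 14 probes the whole interval lay within 2-fold in either direction; the others were those of Cldn1, Cldn2 and Cldn15. Smaller changes lie inside the intervals, so a p that missed the threshold does not show that the levels were equal. The 4 arrays limit the precision.

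**Figure D3:**
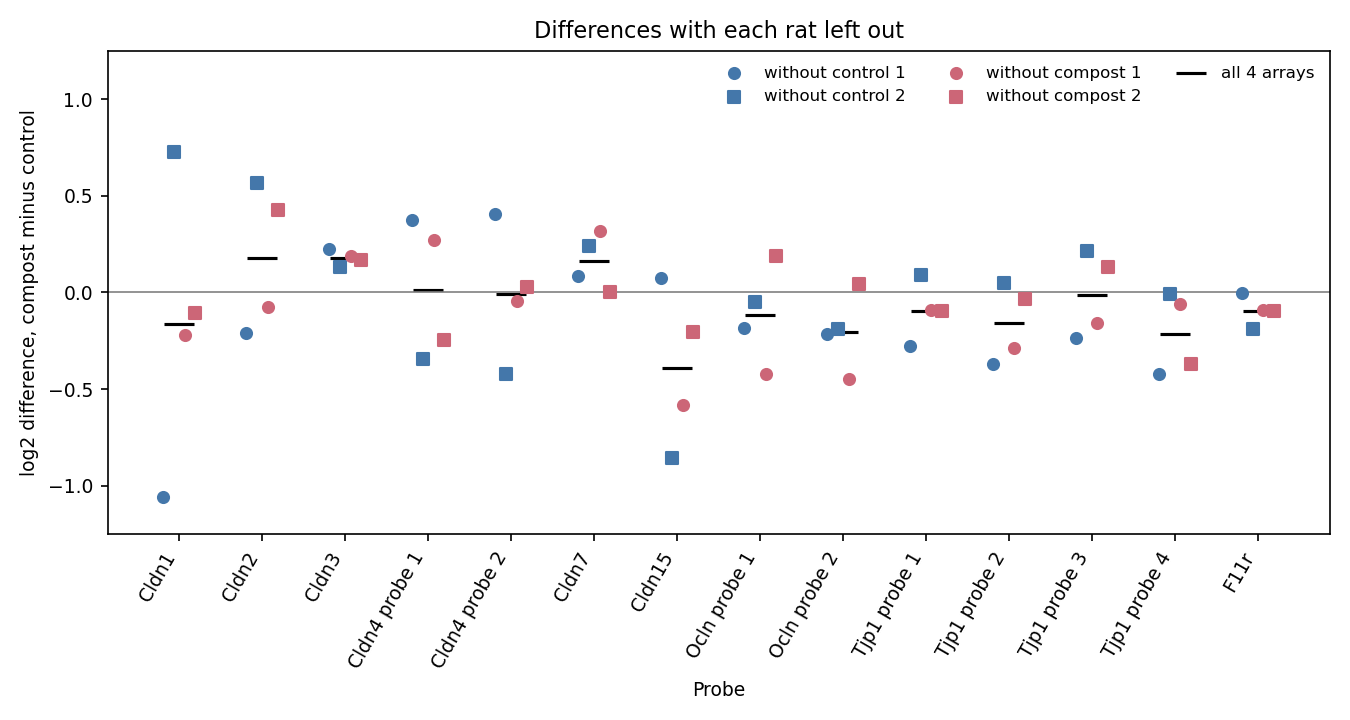
Log2 difference, compost minus control, with all 4 arrays (black bar) and with each rat left out (blue without a control rat, red without a compost rat; circle replicate 1, square replicate 2). The brighter Cldn4 probe runs from -0.35 to 0.37 depending on the control rat left out, while Cldn3 stays between 0.13 and 0.23; the points of Cldn1 rest partly on rats not well above background and have no exact size.

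The control rats lay further apart than the compost rats in 11 of the 14 probes, against 36.3% of all kept probes. By gene, with the brightest kept probe of each, this was 7 of 9 against 36.8%. Probes of a gene share its RNA, the pattern was noticed in these values and it was not tested. Ocln and Cldn7 were the 2 genes that went the other way.

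Per gene, with the brightest kept probe, 4 of the 9 genes had a higher mean in compost and 5 a lower one, against 11299 of 24313 higher among all genes (46.5%). Their median difference was -0.09, and that of all genes was -0.02. The median turned to 0.09 without control rat 2.

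Other tight junction proteins were taken from a list of 43 genes, of which 41 were on the array and 34 were kept. In 21 the compost mean was higher and in 13 lower, none passed (0 of 34), and the median difference was 0.08. This median was 0.03 without control rat 1, -0.01 without compost rat 1, 0.04 with normexp and 0.01 with no filter on dim probes. The groups were apart with compost above in 6 genes (17.6%, against 12.7% of all genes) and with compost below in 5 (14.7%, against 15.2%). The genes with the smallest unadjusted p on the higher side were the trafficking GTPase gene Rab13 (0.33 ± 0.19), the junction adhesion molecule gene Igsf5 (0.24 ± 0.18), Marveld2, which encodes tricellulin of the corners where cells meet (0.32 ± 0.25, and 0.05 with normexp), and Ybx3, a ZO-1-bound regulator (0.26 ± 0.22). On the lower side they were the ZO-associated gene Tjap1 (-0.25 ± 0.18), the myosin light chain kinase gene Mylk, whose product contracts the actin ring at the junction but which smooth muscle also expresses (-0.28 ± 0.21), the polarity scaffold gene Patj (-0.25 ± 0.19) and Cldn19. Cldn19, a claudin known from kidney and eye, had no compost rat well above background (adjusted p = 1 by limma). Its compost mean was 1.58-fold lower when compost levels under the lowest detected level were raised to that level. Control rat 2 and compost rat 2 were level, at log2 scaled levels of -5.27 and -5.28. The rats numbered 1 lay at -4.58 in control and -5.99 in compost. The 1.58-fold holds for the processed intensity alone, since normexp gave 1.18-fold.

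Among further junction genes on the array, some differed by less than their standard error. Cldn5, the claudin of blood vessel lining, differed by 0.11 ± 0.33, Cldn8, of the colon and kidney, by 0.15 ± 0.45, and Cldn23 by 0.17 ± 0.22. The scaffold gene Tjp3, a relative of Tjp1, differed by 0.07 ± 0.19. These 4 were picked after their values were seen. Cldn6, Cldn11, Cldn16, Cldn18 and Cldn22 were not above background in enough rats to be kept.

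Adherens junctions and desmosomes, which hold the cells together beneath the tight junction, were covered by 19 genes, none of which passed (0 of 19). The compost mean was higher in 4 of them (21.1%, against 46.5% of all genes) and lower in 15. The median difference was -0.06. The groups were apart with compost below in 4 genes (21.1%, against 15.2% of all genes) and above in 1 (5.26%, against 12.7%). Dsp, the desmosome's anchor to keratin, differed by -0.38 ± 0.18, while its other kept probe gave 0.01. Afdn, which ties nectins to actin, differed by -0.32 ± 0.20, with -0.30 at its other probe. Jup and Ppl, both desmosome plaque genes, differed by -0.24 ± 0.22 and -0.32 ± 0.29. On the higher side Evpl and Pkp2, also plaque genes, differed by 0.29 ± 0.23 and 0.21 ± 0.23, and Perp and Nectin2 by 0.05 ± 0.19 and 0.05 ± 0.26. The other kept probes of Pkp2 lay between -0.05 and 0.23. E-cadherin, Cdh1, the adhesion receptor of the adherens junction, differed by -0.13 ± 0.21.

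Lists of cell type markers, chosen with earlier results of these data known, were less even between the groups. Markers of villus enterocytes, the absorptive cells among the epithelial cells that carry these junctions, had a lower compost mean in 12 of 12 genes. In 8 of them the groups were apart (66.7%, against 15.2% of all genes). Their median difference was -0.64. Their scaled intensities summed to 2095 and 1656 in control and to 1122 and 1447 in compost. Such a sum weighs the brightest probes most, here those of Fabp1, Fabp2 and, in control, Apoa4, and does not measure the number of cells. Lct and Alpi, the brush border enzymes lactase and alkaline phosphatase, were not well above background in either of the compost rats. Both count among the 12 and the 8 but were kept through the control rats alone, the group where they were higher. On group means Lct was lower in compost by at least 4.01-fold and Alpi by at least 5.34-fold (each adjusted p = 1 by limma). The control rats themselves lay apart, at log2 scaled levels of -2.99 and -4.20 for Lct and -1.87 and -4.50 for Alpi. Both bounds were computed on the processed intensity alone. General epithelial markers had a median of -0.02, with sums of 1599 and 1577 in control and 1421 and 1796 in compost. Crypt and cell cycle markers had a median of 0.11, and endothelial markers, which bear on Cldn5, also 0.11. Smooth muscle markers had a median of 0.12. Markers of B and plasma cells had a higher compost mean in 8 of 8 genes, with the groups apart in all 8 (100%, against 12.7% of all genes). Their median was 1.57, or 1.42 with the 2 genes undetected in control, Ms4a1 and Cr2, at their bounds. These 2 genes count among the 8 but were kept through the compost rats alone, the group where they were higher. The compost rats lay apart, at log2 scaled levels of -5.29 and -1.09 for Cr2 and -1.62 and 0.13 for Cd79b. Mzb1 went the other way, at 0.52 and -0.68, as did Tnfrsf17, while Cd22 was level. None of these markers passed on its own (0 called in each list). Their part in the values of the junction genes was not tested.

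**Figure D4:**
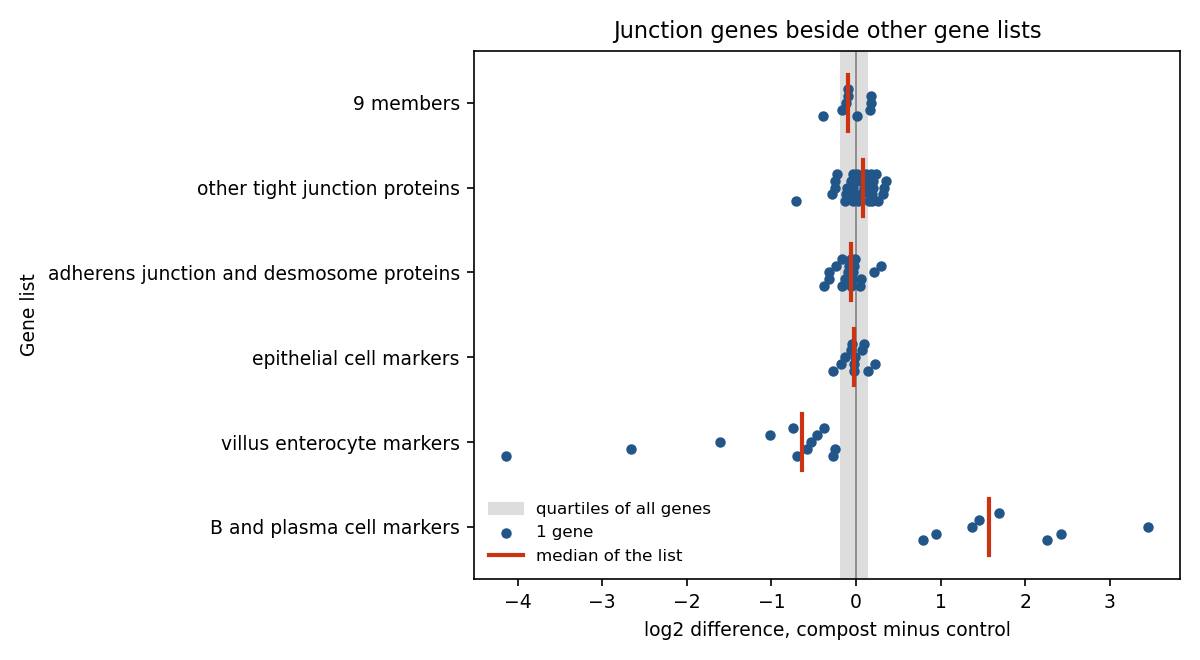
Log2 difference, compost minus control, of each kept gene in 6 lists (1 blue point per gene, red line the median), with the quartiles of all 24313 genes from -0.18 to 0.13 in grey. The medians of the 4 upper lists, from -0.09 to 0.08, lie inside the grey band; villus enterocyte markers centre on -0.64 and B and plasma cell markers on 1.57.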

How the data were processed

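Each rat's Cy3-labelled RNA was read on a one-colour Agilent array. Agilent Feature Extraction 9.1.3.1 gave a linear processed intensity after detrending and background subtraction, with no scaling across arrays, per the file headers and the submitters' processing notes. The deposited scanner files also hold raw spot and background intensities and flag columns. The value table deposited by the authors repeats the processed intensity to 3 significant digits. Control spots (1639) and outlier spots were left out, which removed 31 of 41012 probes. The log2 intensity of each probe minus its array's 75th percentile was fitted with limma 3.58.1 in R 4.3.3, without a replicate block, on the 28415 probes detected above background by 2 or more of the 4 arrays. P-values were two-sided and adjusted by Benjamini-Hochberg. A gene was its brightest kept probe, which gave 24313 genes or transcripts. Names were updated through RefSeq GRCr8: 10819 probes by accession, 5199 by symbol and 3485 by synonym, while 21478 kept the name in the deposited files. Listed genes were named by the smallest unadjusted p, up to 4 in each direction. Replicates are labelled as separate rats. The members and lists were chosen with earlier results of these data known. The deviations of the replicates 1 from their group means had r = -0.04 over kept probes. This value cannot decide whether the replicate numbers pair the rats. Of the genes that the naming rules chose, 1 is not reported here.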

Additional observations from a re-analysis of the deposited data

How the results depend on the processing

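Quantile scaling, a percentile over probes detected on all arrays, normexp (offset 50), both filters, a variance trend, the authors' value table and the replicate block left 0 tight junction probes called, as did leaving out each rat. The count over the whole table was 0, and 1 with normexp and 0 to 2 without 1 rat. The labels give both groups replicates 1 and 2. With the replicate number as a block, 0 probes were called, 901 had an unadjusted p under 0.05 (913 without it), and the medians stayed at -0.09 and 0.08. Probes with both compost rats above numbered 1, and 2 with quantile scaling. Those with both below numbered 1, and 0 with quantile scaling, with the percentile over detected probes and with normexp, and 2 without a filter, where the undetected Cldn1 probe enters. Without 1 rat both counts ran from 2 to 6, since 3 arrays separate more readily (22.0% to 42.7% of all probes in each direction). Direction turned in 2 probes under other settings: 0.030 for the dimmer Cldn4 probe with normexp and 0.013 for Tjp1 A_44_P238710 with quantile scaling. It turned without 1 rat in 10 probes: Cldn1 (-1.06 to 0.73, of no exact size since 2 rats were not well above background), Cldn15 (-0.86 to 0.074), Cldn2 (-0.21 to 0.56), Cldn4 (-0.35 to 0.37 and -0.42 to 0.41), Ocln (-0.42 to 0.19 and -0.45 to 0.043) and Tjp1 (-0.24 to 0.21, -0.37 to 0.051 and -0.28 to 0.091). It held in Cldn3, Cldn7, F11r and Tjp1 A_44_P314634. The cause was not tested.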
